A study of Rattus norvegicus with 352 samples.

Results

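The clustered protocadherin genes were described in whole brain hemispheres of rats. They are the rows of the deposited gene table whose symbol begins with Pcdha, Pcdhb or Pcdhg: 38 genes of 38354. They comprise 1 alpha gene (Pcdha4), 22 beta genes and 15 gamma genes, of which 11 are gamma A, 2 gamma B and 2 gamma C. All lie on rat chromosome 18 of the GRCr8 assembly, between 28688274 and 29919098, a span of 1231 kb. PolyA RNA came from frozen whole brain hemispheres of heterogeneous stock rats, an outbred laboratory stock, all naive and untreated; age, sex and genotype are not among the labels used here. All libraries form a single group, so the study sets no condition against another, and the spread between libraries and the relations between genes are the outcome. The labels do not say whether each library is from a separate rat, so p-values measure the spread between libraries. The libraries held between 5418230 and 42980793 estimated counts, with a median of 21881769. A level is log2(CPM + 1), where CPM is the count scaled to the same library total in every library, and a gene was tested when its mean level was at least 1. Of the 38 genes, 37 were tested, among 16683 tested genes in all.

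Clustered protocadherins are cell adhesion proteins of the neuronal surface. Each has an ectodomain of cadherin repeats that binds the same isoform on another cell, and neurons that carry the same combination recognise each other as self, which underlies self-avoidance of dendrites and axons. In the alpha and gamma clusters each variable exon has its own promoter and is spliced to constant exons that all isoforms of that cluster share, whereas a beta gene is a single coding exon. Single neurons are known to use a few of the alternate promoters, while the C-type isoforms are used more widely. Promoter use is known to depend on the factor CTCF, cohesin and DNA methylation, and most of these promoters hold a conserved element with a CGCT core.

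How the genome annotation divides the clusters decides what each value can mean. RefSeq folds 14 alpha symbols and 22 transcripts into Pcdha4, so its level covers the alpha cluster as a whole and no single alpha promoter. Of the 15 gamma genes, 12 end at the same base, 29919095, at the far end of the constant exons they share. Reads from a constant exon fit several of these genes, and the estimated counts divide them. Beta genes resemble one another in sequence, but their counts differed in this respect. Those of Pcdhb17 lay near whole numbers, with a lowest of 57.9999 and a highest of 565.998. Those of Pcdhb6 did not, with a lowest of 18.244 and a highest of 232.72. How many reads were divided between beta genes was not tested. Where reads were divided, the split between genes such as Pcdhb6 and Pcdhb8 is less certain than their sum.

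Promoter sequences are shown because each of these genes is switched on from its own start. The RefSeq promoter table for GRCr8, with 250 bases before and 50 after a start, held 34 of the 38 genes. Pcdhb11, Pcdhb17, Pcdhb22 and Pcdhgb7 had no entry. For 32 of the 34, that start was the annotated start of the gene. Pcdhb10, counted among the beta promoters below, starts at 29382955, while the stretch around its word begins at 29391773, inside the gene's span. The commonest 10-base word among the 34 promoters was GGTGGCGCTG, found in 15 of 19 beta promoters and in no alpha or gamma promoter. Searched on both strands, it stood in 0.176% of the 33434 other promoters of the table. The commonest 11-base word with 1 free base among gamma A promoters, CGCTGTTNACC, in which N is any base, was found in 8 of 11 gamma A promoters, in no beta promoter and in 0.0718% of the others. Both words contain the CGCT core, no promoter held both, and CGCT alone stood in 28 of the 34 promoters against 60.8% of the others. Both words were read off these promoters, so their counts in them are a description. The windows printed here show the word in capitals with 15 bases on either side, 5′ to 3′ on the plus strand, for the 4 beta genes and 4 of the gamma A genes whose levels the results below turn on. They lie at chr18:29302399-29302438 for Pcdhb5, chr18:29320147-29320186 for Pcdhb6, chr18:29339253-29339292 for Pcdhb8, chr18:29379243-29379282 for Pcdhb9, chr18:29745083-29745123 for Pcdhga2, chr18:29794205-29794245 for Pcdhga7, chr18:29805000-29805040 for Pcdhga8 and chr18:29815783-29815823 for Pcdhga9.
Pcdhb5: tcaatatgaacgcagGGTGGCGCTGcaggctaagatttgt
Pcdhb6: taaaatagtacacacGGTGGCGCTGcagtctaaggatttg
Pcdhb8: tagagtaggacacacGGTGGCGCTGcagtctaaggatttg
Pcdhb9: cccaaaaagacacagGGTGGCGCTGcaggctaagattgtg
Pcdhga2: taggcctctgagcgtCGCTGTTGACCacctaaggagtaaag
Pcdhga7: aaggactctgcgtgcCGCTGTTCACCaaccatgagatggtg
Pcdhga8: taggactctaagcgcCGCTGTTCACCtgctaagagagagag
Pcdhga9: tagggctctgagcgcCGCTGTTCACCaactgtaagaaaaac

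Among all 561 pairs of promoters of these genes, Pcdhb6 and Pcdhb8 were the most alike, with 69.6% identical positions in a global alignment against a median of 50.1%. The 250 bases before the annotated start of each are printed because the levels of these genes went opposite ways between the groups of libraries described with the results. The word, in capitals, began at base 22 of the window of Pcdhb6 (chr18:29320141-29320390) and at base 43 of that of Pcdhb8 (chr18:29339226-29339475); in Pcdhb5 and Pcdhb9 it lay 52 bases before the start.
Pcdhb6: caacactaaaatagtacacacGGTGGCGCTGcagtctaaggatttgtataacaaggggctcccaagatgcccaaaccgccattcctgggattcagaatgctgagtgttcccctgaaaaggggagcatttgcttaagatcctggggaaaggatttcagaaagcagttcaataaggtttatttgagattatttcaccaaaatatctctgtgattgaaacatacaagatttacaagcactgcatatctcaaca
Pcdhb8: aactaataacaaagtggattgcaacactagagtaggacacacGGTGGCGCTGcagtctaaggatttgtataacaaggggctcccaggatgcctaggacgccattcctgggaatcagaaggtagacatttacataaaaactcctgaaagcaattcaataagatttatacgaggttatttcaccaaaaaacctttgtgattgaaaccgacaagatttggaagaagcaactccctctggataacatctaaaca
The region before the start of Pcdhga1 (chr18:29738389-29738638), the gamma gene with the widest spread, is shown for contrast. It held neither whole word, but it opened with the last 10 letters of the second, and the base before them lies outside the table's window.
Pcdhga1: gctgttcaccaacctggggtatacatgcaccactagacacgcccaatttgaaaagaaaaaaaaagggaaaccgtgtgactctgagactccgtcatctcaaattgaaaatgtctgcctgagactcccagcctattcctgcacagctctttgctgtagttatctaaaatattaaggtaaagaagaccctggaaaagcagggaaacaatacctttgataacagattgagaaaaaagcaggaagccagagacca

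The alpha sum was 195.4 ± 6.96 CPM (SD over all libraries), with a lowest library of 171.7, a median of 195.6 and a highest of 216.2 CPM. The beta sum was 146.2 ± 7.45 CPM, from 127.4 to 177.2 CPM with a median of 146.3. The gamma sum was 722 ± 26.5 CPM, from 628 to 798 CPM with a median of 723. These are coefficients of variation of 3.56%, 5.10% and 3.67%. The median coefficient of variation of single genes was 15.9% over the 21 tested beta genes and 13.1% over the 15 gamma genes; a sum over many genes varies less by averaging alone, so the values are given side by side only. In bulk RNA, fewer cells of a type and less RNA per cell cannot be told apart, for these sums and for every level below.

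The C-type gamma genes held the larger part of the gamma sum. Pcdhgc3, an isoform used widely in brain cells, had a level of 8.30 ± 0.09, from 7.89 to 8.50 with a median of 8.31, and took 43.6 ± 1.90% of the gamma counts. Pcdhgc5 had a level of 6.47 ± 0.10, from 6.10 to 6.82 with a median of 6.46, and took 12.2 ± 0.84%. Both kept within a fold of 1.22 and 1.26 between the 5th and 95th percentiles of libraries. Pcdha4, which stands for the alpha cluster, had a level of 7.62 ± 0.05, from 7.43 to 7.76 with a median of 7.62. The 13 gamma A and B genes together held 319.4 ± 13.8 CPM. Among them Pcdhga2 had a level of 5.40 ± 0.21 and took 5.75 ± 0.77% of the gamma counts, Pcdhgb7 had a level of 5.27 ± 0.14, Pcdhga7 of 5.17 ± 0.20 and Pcdhga4 of 5.09 ± 0.13. Pcdhgb8 had a level of 4.84 ± 0.18, and the lowest gamma gene was Pcdhga1 at 2.24 ± 0.82. Transcript lengths were not used here, so gamma levels are not ranked per length.

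Beta genes were set side by side per kb of their annotated span, which need not equal the transcript length. Pcdhb10 spans 13324 bases and the next longest, Pcdhb22, 6105, so the 0.625 CPM per kb of Pcdhb10 is not a like value. Pcdhb9 had 4.01 CPM per kb, Pcdhb5 3.83 and Pcdhb19 3.68. On the level scale the highest were Pcdhb22 at 4.04 ± 0.17, Pcdhb9 at 3.76 ± 0.23 and Pcdhb17 at 3.61 ± 0.12. The lowest tested beta gene was Pcdhb21 at 1.69 ± 0.22. Pcdhb1, the first gene of the beta cluster, had a mean level of 0.05 and was above 0 in 44.4% of libraries. It stayed under the level minimum and entered no test. The median estimated count per library was 58.4 for Pcdhga1 and 6947 for Pcdhgc3, and among beta genes 76.5 for Pcdhb12 and 343.8 for Pcdhb22, so counting error weighs more on the genes of low count.

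**Figure D1:**
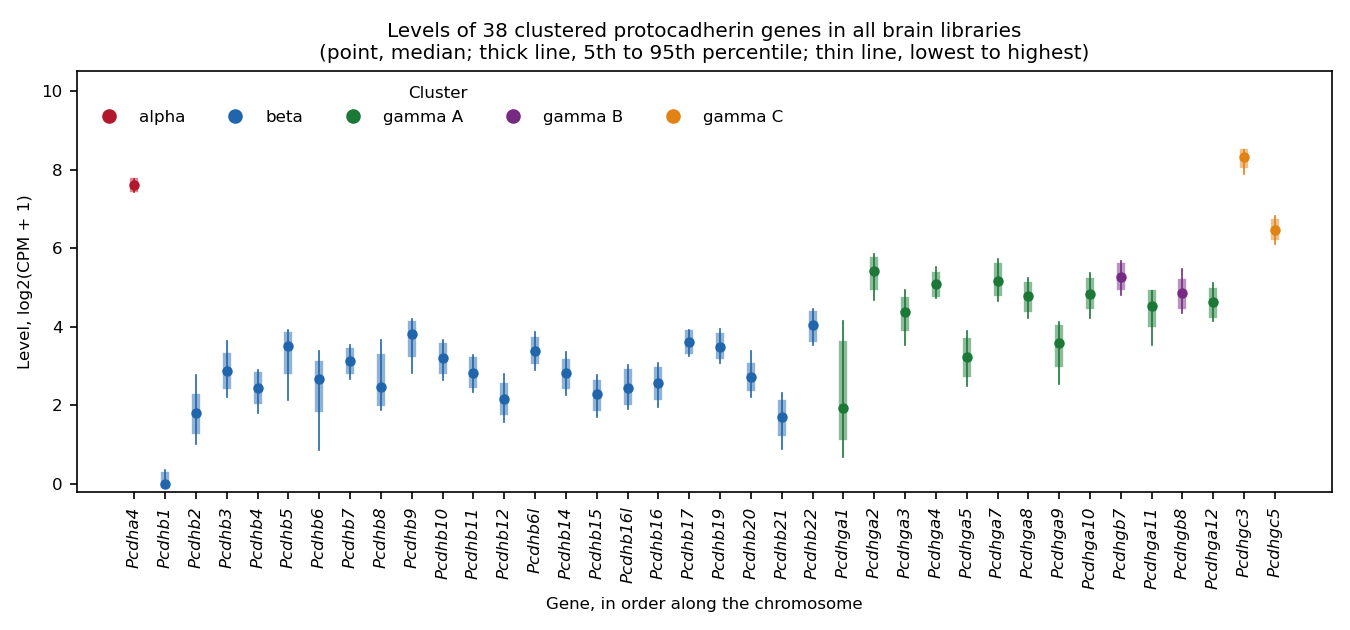
Level, log2(CPM + 1), of each of the 38 genes on the vertical axis, with the genes in order along the chromosome on the horizontal axis. Points are medians of all libraries, thick lines run from the 5th to the 95th percentile and thin lines from the lowest to the highest library; Pcdhga1, from 0.67 to 4.15, has the longest line.

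Spread between libraries was described for each cluster. The SD of each gene was divided by the SD that a smooth trend over all tested genes gives at its mean level, and 2 times the trend or more was called an excess. This was met by Pcdhga1 at 3.79 times and Pcdhga2 at 2.09 times the trend, 2 of 37 genes, beside 5.21% of all tested genes, so the count of excesses was close to the background. At 1.5 times the trend, 13 of 37 genes stood out beside 12.4% of all tested genes: 9 of 15 gamma genes and the beta genes Pcdhb5 (1.93), Pcdhb6 (1.86), Pcdhb8 (1.73) and Pcdhb9 (1.61). All 15 gamma genes lay above the trend. Among the 21 tested beta genes 12 lay below it, with a median of 0.95. Pcdha4 was at 0.67, but it covers the alpha cluster as a whole and is not a like unit to single genes. The median over the 37 genes was 1.26, beside 0.99 over all tested genes. Pcdhga7 and Pcdhga11 had 1.90 and 1.89 times the trend, Pcdhgb8 1.63 and Pcdhgb7 1.41.

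**Figure D2:**
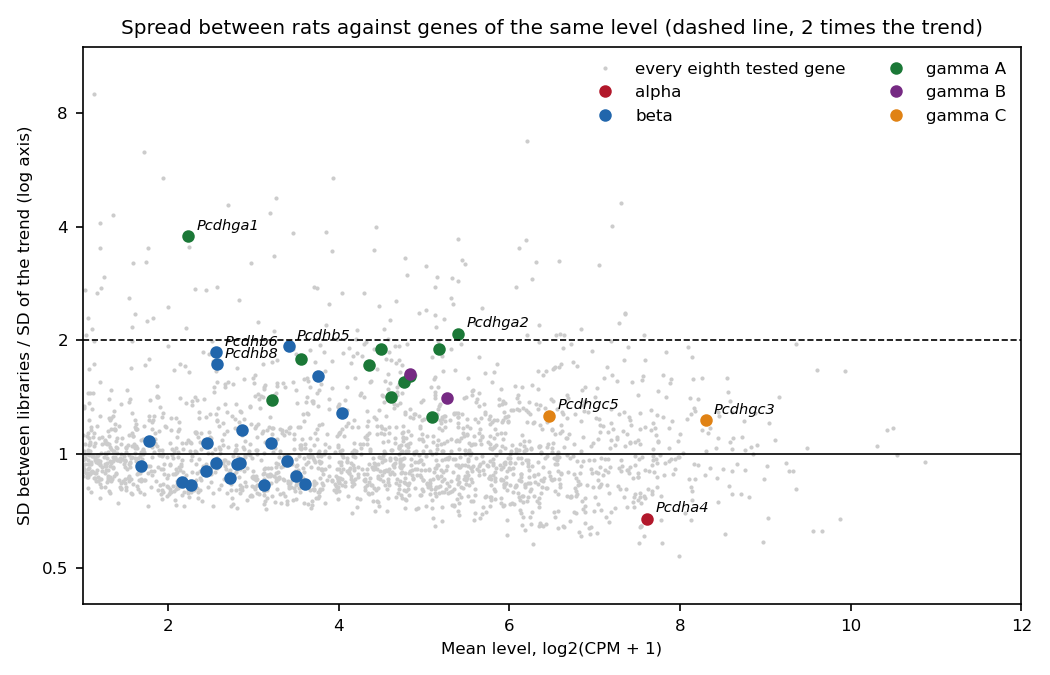
SD between libraries over the SD of the trend (vertical log axis) against mean level (horizontal axis) for the 37 tested genes, coloured by cluster, and for every eighth tested gene in grey. Pcdhga1 (3.79) and Pcdhga2 (2.09) lie above the dashed line at 2. Pcdha4 (0.67), which covers the alpha cluster as a whole, lies below the trend.

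Pcdhga1, the first gene of the gamma cluster, fell into 2 separate levels. Its level ran from 0.67 to 4.15 with a median of 1.93. Gaussian mixtures put 64.6% of libraries in a lower level of 1.67 ± 0.32 and 35.4% in an upper level of 3.27 ± 0.30. The 2 means were 5.08 SD apart, a fold of 3.01 on the CPM + 1 scale, and the Bayesian information criterion dropped by 211.7. Separate levels were called where the criterion dropped by more than 10, the means lay at least 4 SD apart and each level held at least 5% of libraries. Pcdhga1 was the only one of the 37 genes to meet all 3 conditions, beside 0.821% of all tested genes. Pcdhb6 had means 4.42 SD apart, but its lower level held 8 libraries, under the minimum share.

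Pcdhb5, Pcdhb8 and Pcdhb9 had means 3.17, 3.83 and 3.14 SD apart and were likewise not called singly. Plotted against one another, these genes and Pcdhb6 placed the libraries in 3 groups. A joint mixture of the 4 genes, added after their values were seen, had its lowest Bayesian information criterion at 3 groups of 250, 85 and 7 libraries, with 1 to 6 groups tried. It fell by 446 from 1 group to 3 and rose by 21.4 from 3 to 4, and every library was assigned with a probability of at least 0.9999. In the group of 250, Pcdhb5 ran from 3.24 to 3.92 with a median of 3.57. In the group of 85 it ran from 2.73 to 3.38 with a median of 3.07, and in the group of 7 from 2.13 to 2.40 with a median of 2.28. Pcdhb6 had medians of 2.76, 2.16 and 1.06 in the same order, and Pcdhb9 of 3.87, 3.50 and 3.07. Pcdhb8 went the other way, with medians of 2.39, 3.05 and 3.38. For each single gene the ranges of the 250 and the 85 libraries overlapped, and the 4 genes together separated them. The 7 libraries had totals between 22180195 and 25429419 estimated counts, and they were the 7 lowest for Pcdhb5, for Pcdhb6 and for Pcdhb9. Since the 4 genes define these groups, the differences between the groups are a description and were not tested.

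The levels of Pcdhga1, which had no part in defining the groups, followed them in part. All libraries of its lower level were in the group of 250. Its upper level held the other 29 libraries of that group, all 85 of the middle group and all 7 of the last. The upper level thus took 11.6% of the first group and 100% of both others. Pcdhga1 starts 356.2 kb after the end of Pcdhb9.

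**Figure D3:**
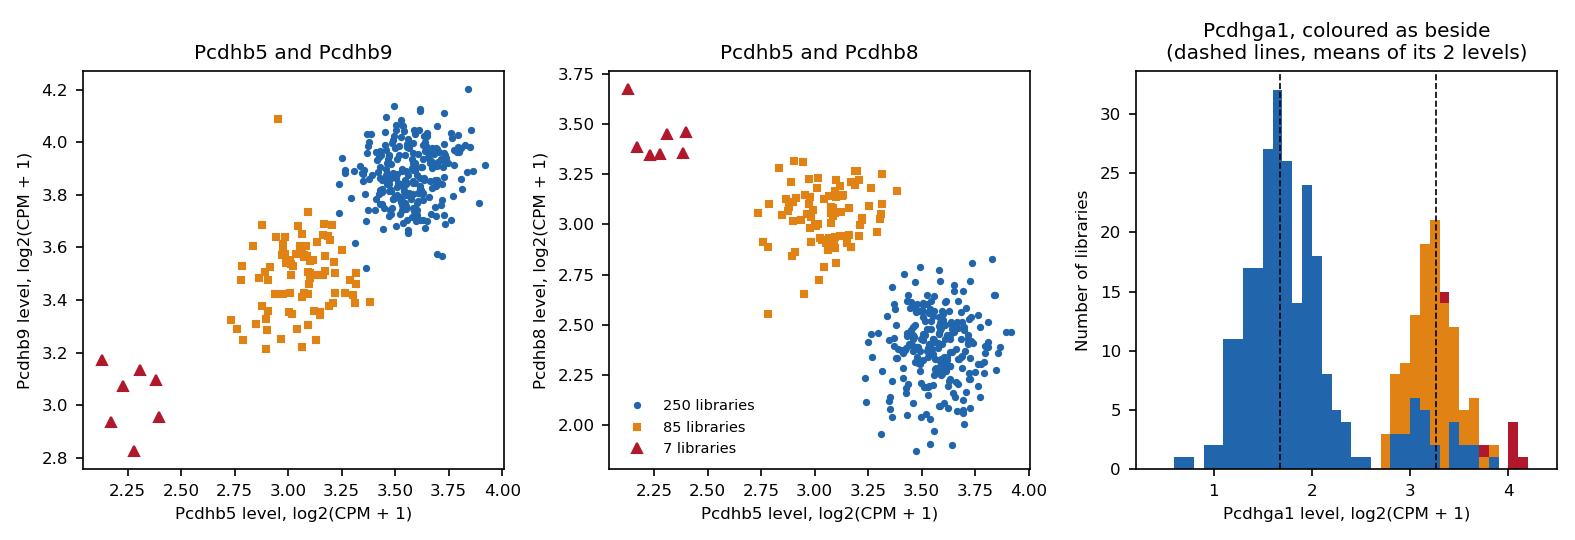
Levels, log2(CPM + 1), of Pcdhb9 and Pcdhb8 against Pcdhb5 (left and middle; each point is 1 library), and the number of libraries by Pcdhga1 level (right), coloured by the 3 groups of 250, 85 and 7 libraries. The ranges of the 250 and the 85 overlap for each single gene, and the groups were made from 4 genes together. The upper Pcdhga1 level holds all of the 85 and the 7.

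Libraries of the groups of 250 and 85 came from each of the 7 blocks of sample identifiers that were large enough to compare, and those of the group of 7 from 4 of them. Blocks are libraries whose identifier begins with the same 6 characters; what they stand for is not given in the labels. In the 7 blocks of at least 8 libraries, the share of libraries outside the group of 250 ran from 12.5% to 38.5%. The share in the upper level of Pcdhga1 ran from 12.5% to 61.5%. In limma's moderated F test with Benjamini-Hochberg adjustment, 1 of 37 genes differed between blocks, beside 8.21% of all tested genes. This was Pcdhga4 (adjusted p = 0.00389), while Pcdhga10 (adjusted p = 0.0514) and Pcdhgc3 (adjusted p = 0.0632) lay just outside the threshold of 0.05. With median ratio scaling these 3 genes were called. Pcdhb5 (adjusted p = 0.87), Pcdhb8 (adjusted p = 0.89) and Pcdhb9 (adjusted p = 0.944) did not pass the test. Nor did Pcdhga1 (adjusted p = 0.153), whose unadjusted p in the same F test was 0.0342.

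Relations between the genes were computed after the first 10 principal components of the other tested genes were taken out, and depended on whether libraries of different groups were put together. Pcdhga1 was left out of the pairs because of its 2 levels. With all libraries together, 20.2% of 630 pairs had an absolute Pearson r of at least 0.3, 64 positive and 63 negative, beside 5.55% of the 16627 pairs of neighbouring tested genes that are not both members, 3.7% positive and 1.85% negative. None of the 35 pairs with Pcdha4 was among them. Of beta pairs 17.1%, of gamma pairs 31.9% and of pairs of a beta with a gamma gene 21.1% were past 0.3. Within the group of 250 libraries, 12 pairs (1.90%) were past 0.3, beside 5.49% of the neighbouring pairs elsewhere, and within the group of 85, 18 pairs (2.86%), beside 7.5%. Both shares are under those of neighbouring genes, which lie side by side, whereas most of the 630 pairs do not. With the means of the 3 groups taken out, 6 of 630 pairs were past 0.3, beside 5.49%. Because the libraries fall into groups, r is given within the groups and not over all libraries.

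Relations among the 4 beta genes inside the groups are descriptions, since the groups were made from these genes and dividing by them takes out most of their shared variation. Within the 250 libraries, Pcdhb5 and Pcdhb9 had r = 0.22 (Spearman's rho = 0.19). Pcdhb5 and Pcdhb8 had r = -0.07 (rho = -0.10). Pcdhb6 and Pcdhb8, whose promoters are most alike, had r = -0.04 (rho = -0.04). Within the 85 libraries the same 3 pairs had r = 0.17, 0.05 and 0.01. Over all libraries, and not inside the groups, the summed CPM of Pcdhb6 and Pcdhb8 had a coefficient of variation of 11.3%. For each alone it was 27.3% and 31.5%. A sum varies less than its parts by averaging alone, so these values are given side by side only.

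A few pairs stayed related inside the groups, and 3 of them were past 0.3 with the same sign in both larger groups. Permutation p-values are two-sided, from 100000 permutations, adjusted by Benjamini-Hochberg over 1260 relations of 630 pairs in the 2 groups. Pcdhb2 and Pcdhb3, neighbours at the start of the tested beta genes, had r = 0.43 in the 250 libraries (rho = 0.38, adjusted permutation p = 0.000741) and r = 0.59 in the 85 (rho = 0.49, adjusted permutation p = 0.000741). Pcdhga9 and Pcdhga11 had r = 0.41 in the 250 libraries (rho = 0.28, adjusted permutation p = 0.000741) and r = 0.34 in the 85 (rho = 0.26, adjusted permutation p = 0.03). Pcdhga8 and Pcdhga11 had r = 0.38 (rho = 0.35, adjusted permutation p = 0.000741) and r = 0.33 (rho = 0.35, adjusted permutation p = 0.031). Without the 2 libraries most distant from the first gene's median, r was 0.39, 0.33 and 0.37 in the 250 libraries and 0.50, 0.27 and 0.35 in the 85. With block means taken out within the 250 libraries, r was 0.43, 0.40 and 0.39.

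The other pairs past 0.3 in the 250 libraries were mostly gamma A genes. Pcdhga11 was past 0.3 with Pcdhga2 (r = 0.39, rho = 0.27, adjusted permutation p = 0.000741), and Pcdhga2 with Pcdhga9 (r = 0.31, rho = 0.21, adjusted permutation p = 0.000741). Pcdhga7 went against Pcdhga9 (r = -0.38, rho = -0.31, adjusted permutation p = 0.000741) and Pcdhga11 (r = -0.35, rho = -0.22, adjusted permutation p = 0.000741). Without the 2 farthest libraries these 4 values were 0.32, 0.24, -0.36 and -0.31. Between clusters, Pcdhb16l went against Pcdhga11 (r = -0.35, rho = -0.26, adjusted permutation p = 0.000741) and Pcdhga8 (r = -0.34, rho = -0.27, adjusted permutation p = 0.000741), and Pcdhb19 against Pcdhgc3 (r = -0.33, rho = -0.29, adjusted permutation p = 0.000741). Counts of gamma isoforms share the constant exons, and the part of that sharing in these values was not tested.

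**Figure D4:**
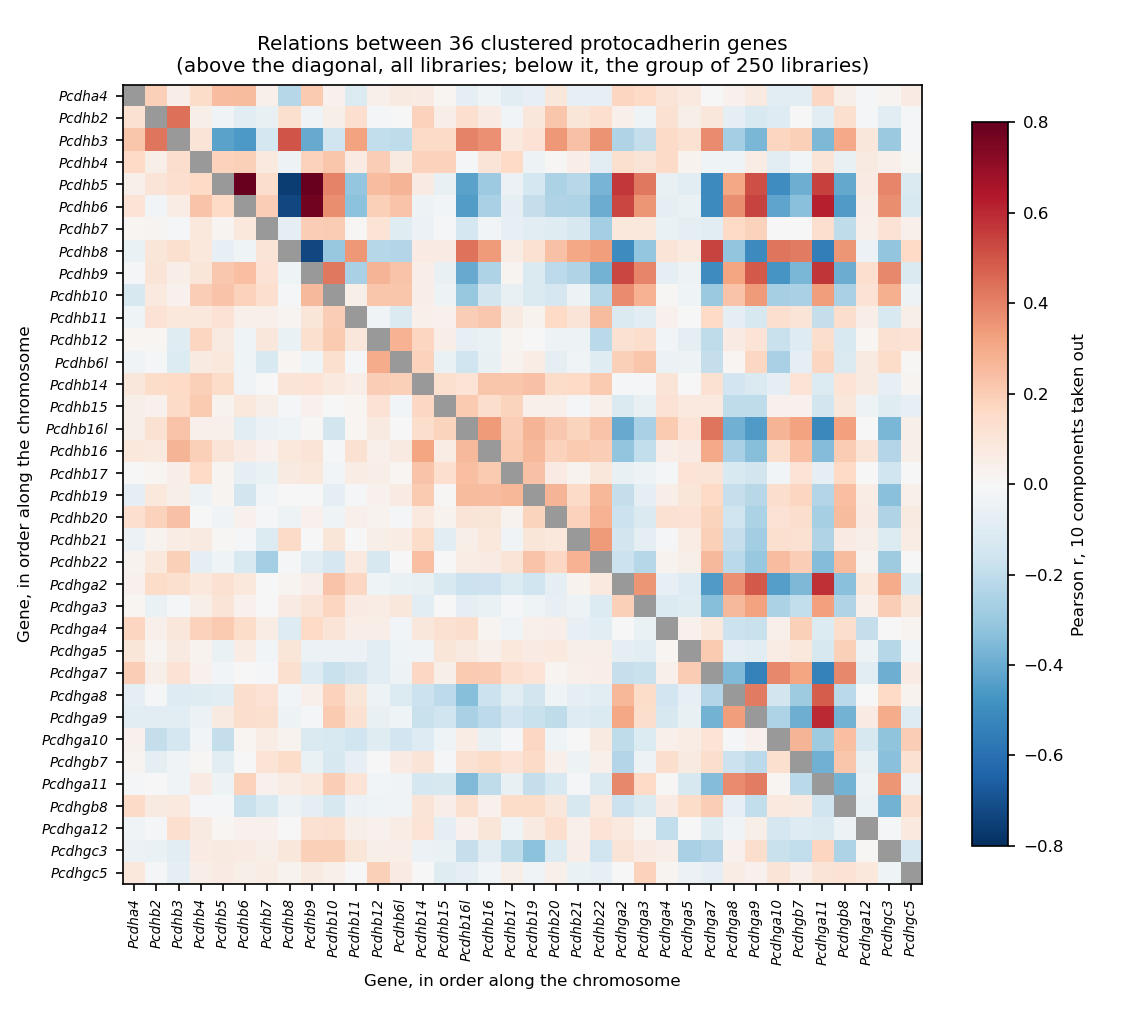
Pearson r, as colour from -0.8 (blue) to 0.8 (red), for 36 genes in order along the chromosome on both axes, with 10 components taken out: above the diagonal over all libraries, below it within the group of 250. The blocks of strong colour around Pcdhb5, Pcdhb6, Pcdhb8, Pcdhb9 and the gamma A genes above the diagonal are mostly pale below it, where 12 of 630 pairs are past 0.3.

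Pcdhga1 was set against the 36 other tested members inside its lower level and inside the middle group. The share over all tested genes was not computed here, so these counts have no background beside them. In the libraries of its lower level, 0 of 36 genes had an absolute r of at least 0.3 with it; Pcdhb9 had r = -0.24 (rho = -0.23, adjusted permutation p = 0.0353 for r and 0.032 for rho). The upper level of Pcdhga1 was examined only in the 85 libraries of the middle group. Its 29 libraries in the group of 250 and the 7 of the last group were left out. In the 85, Pcdhb8 had r = 0.31 (rho = 0.36, adjusted permutation p = 0.0765), Pcdhga2 r = -0.33 (rho = -0.30, adjusted permutation p = 0.0528) and Pcdhga9 r = -0.35 (rho = -0.30, adjusted permutation p = 0.0403), over 72 relations. Of these 3, Pcdhga9 passed the threshold by r and not by rho (adjusted permutation p = 0.118), and Pcdhb8 by rho (adjusted permutation p = 0.032) and not by r.

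Every tested gene was also fitted on the level of 1 member, in limma with the 10 components as covariates, a gene being called at an adjusted p under 0.05 and an absolute partial r of at least 0.3. Pcdhb5 was added to the genes fitted in this way after its values were seen. With it, 26 of 16682 genes were called, and 19 of them were clustered protocadherins, 9 up and 10 down, beside 0.0779% of all genes in each direction. Going with Pcdhb5 were 9 genes: Pcdhb6, Pcdhb9, Pcdhb10, Pcdhga2, Pcdhga3, Pcdhga8, Pcdhga9, Pcdhga11 and Pcdhgc3. Going against it were 10: Pcdhb3, Pcdhb8, Pcdhb11, Pcdhb16l, Pcdhb22, Pcdhga1, Pcdhga7, Pcdhga10, Pcdhgb7 and Pcdhgb8. The 7 other genes called all lay on chromosome 18, of 403 tested there outside the clusters. With the 3 groups as further covariates, limma called 0 genes with Pcdhb5; 10 of 36 clustered protocadherins had an unadjusted p under 0.05, beside 7.51% of all genes. The groups were made from Pcdhb5 and 3 other genes and take out 81.3% of its variance left after the components, so fewer calls follow from how the fit was built.

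The 7 neighbours on chromosome 18 were spread over 2.67 Mb around the clusters. Ndufa2, a subunit of mitochondrial complex I, starts 56.4 kb before the first protocadherin and went with Pcdhb5 (adjusted p = 5.84e-52 in limma). Arap3, which acts on small GTPases and starts 166.3 kb after the last, went against it (adjusted p = 5.94e-21). Hbegf, a ligand of the EGF receptor family, starts 298.1 kb before and went with it (adjusted p = 1.05e-10). Ankhd1 and Psd2, 251.98 kb and 849 kb before, went against it (adjusted p = 6.1e-06 and 6.91e-08), and the loci LOC120098124 and LOC120098187 went with it (adjusted p = 1.5e-21 and 1.01e-09). With the groups as covariates, none of the 7 passed in limma, at adjusted p-values from 0.577 to 0.924. The tested genes next to the clusters on either side, and those inside, were not called (adjusted p from 0.356 to 0.983 in limma). These were Hars1, Hars2 and Zmat2 before and Diaph1, Hdac3 and Rell2 after. Slc25a2, Taf7 and LOC103694196 lie between the first and last protocadherin.

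The member of highest mean level in each cluster, with Pcdhgc5, was fitted in the same way. With Pcdhb22, 9 clustered protocadherins were called, 4 up and 5 down, beside 0.048% and 0.0719% of all genes, and with Pcdhgc3 12 were called, 4 up and 8 down, beside 0.03% and 0.048%. With the groups as covariates these became 0 and 2 in limma, beside 0.03% of all genes up and 0.054% down with Pcdhb22 and 0.012% in each direction with Pcdhgc3. Then 12 of 36 had an unadjusted p under 0.05 with Pcdhb22, beside 8.57% of all genes, and 14 of 36 with Pcdhgc3, beside 12.2%. The 2 with Pcdhgc3 were Pcdhb19 and Pcdhga1, both down. Pcdhga1 has 2 levels, and 29 libraries of the group of 250 are in its upper level. Inside its lower level, Pcdhga1 and Pcdhgc3 had r = -0.12 (adjusted permutation p = 0.346). In the middle group of 85 they had r = -0.16 (adjusted permutation p = 0.397). With Pcdha4 and Pcdhgc5, limma called 0 of 36 in either direction, beside 0.00599% of all genes down with Pcdha4 and 0.00599% up with Pcdhgc5, and 10 and 11 had an unadjusted p under 0.05, beside 11.7% and 12.1% of all genes.

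Of genes outside the clusters, 1 was called with Pcdha4, 11 with Pcdhb22, 1 with Pcdhgc3 and 1 with Pcdhgc5. Pcdha4 went against Psat1, an enzyme of serine synthesis (partial r = -0.30, adjusted p = 0.000343 in limma). With the groups as covariates it stood at -0.293, under the size threshold, and limma called 0 genes with Pcdha4, where 12.7% of all genes had an unadjusted p under 0.05. The next were Epha5 (0.27) and Ccdc125 (0.25), under the size threshold. Pcdhgc3 went with Gprc5b (partial r = 0.31, adjusted p = 1.44e-05 in limma; 0.295 and not called with the groups as covariates), and next came Slc1a3, an astrocyte glutamate transporter, at 0.295, under the size threshold. Ndufa2 also stood at 0.295, and at -0.08 with the groups as covariates, where Slc1a3 stood at 0.33. Pcdhgc5 went with Zcchc18 (partial r = 0.30, adjusted p = 0.000324 in limma), next to Pja1 (0.28) and Kcnj10, an astrocyte potassium channel (-0.28). The 3 genes most tied to Pcdhb22 were Eif2s3y and Ddx3y, up, and Xist, down (adjusted p = 4.17e-07 for each in limma). These 3 genes lie on the Y and X chromosomes and fall into 2 levels each, so no r over all libraries is given; Pcdhb22 itself had 1 level, from 3.54 to 4.45 with a median of 4.05.

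Genes known to act on or with clustered protocadherins were taken from 3 lists. Over all tested genes, an unadjusted p under 0.05 was met by 11.7% with Pcdha4, 8.36% with Pcdhb22, 11.7% with Pcdhgc3, 12.1% with Pcdhgc5 and 6.28% with Pcdhb5. Of a list of 21 regulators, among them Ctcf, the cohesin subunit Rad21, the methyltransferase Dnmt3b and the chromatin protein Smchd1, 0 were called with any of the 5 members in limma, and 1 to 5 had an unadjusted p under 0.05. Of 22 partner and signalling genes, such as the kinases Fyn and Ptk2 and the actin regulators Wasf1 and Cyfip2, 0 were called, and 1 to 5 had an unadjusted p under 0.05. Of 15 non-clustered protocadherins and relatives 12 were tested, 0 were called, and 0 to 4 had an unadjusted p under 0.05. The value farthest from 0 was Wasf1 with Pcdha4, at a partial r of 0.23.

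Scores of marker genes of brain regions and cell types went with the 2 gamma C genes. All 8 pan-neuronal markers were tested, and their summed level ran from 7094 to 7970.5 CPM over the libraries. Each score is the mean z value of its markers, and limma was fitted on every tested gene without covariates. Of 555 relations between 37 genes and 15 scores, 12 were called, all with Pcdhgc3 or Pcdhgc5. Each of the 12 is 1 of 37 genes for its score and direction. That is a smaller share than the share of all genes given beside it. Pcdhgc5 went with the cortical excitatory neuron score (r = 0.66, rho = 0.66, adjusted permutation p = 0.000308), 1 of 37 genes beside 12.3% of all genes called up. It also went with the striatum score (r = 0.34, rho = 0.36), beside 11.3%. It went against the scores of cerebellum (r = -0.39, rho = -0.46), hypothalamus (r = -0.38, rho = -0.39) and choroid plexus (r = -0.36, rho = -0.36), beside 5.5%, 9.3% and 16.9% called down. All 10 cortical markers were tested, and their summed level ran from 3553 to 4957 CPM.

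Pcdhgc3 went the other way for several of these scores. It went with the astrocyte score (r = 0.47, rho = 0.49, adjusted permutation p = 0.000308), whose 9 markers summed to between 4838 and 6586 CPM, beside 7.07% of all genes called up. It also went with the scores of cerebellum (r = 0.39, rho = 0.44), choroid plexus (r = 0.39, rho = 0.41), meninges (r = 0.35, rho = 0.35) and pan-neuronal genes (r = 0.33, rho = 0.28), beside 5.49%, 9.12%, 6.87% and 7.05%. It went against the striatum score (r = -0.32, rho = -0.31), beside 9.04%. It went most against the score of nuclear RNAs (r = -0.52, rho = -0.52), which rests on 3 of 5 listed genes and sums to between 407 and 1709 CPM, beside 12.2% called down. The part of cell share and of nuclear RNA in these results was not tested. By limma's adjusted p under 0.05 alone, between 0 (olfactory bulb) and 17 (striatum) of 37 genes passed, beside 6.45% and 61.04% of all genes. These counts include Pcdhgc3 and Pcdhgc5 where they passed. With the size threshold of 0.3 added, limma called none of the other 35 genes with any of the 15 scores. Beside that count, of all genes 7.55% were called up with the serotonin neuron score and 13.2% down, 9.63% down with the cortical score and 6.92% up with the hypothalamus score. For the astrocyte, meninges, pan-neuronal and nuclear scores the opposite direction held 17.1%, 13.3%, 19.5% and 26.6%. The oligodendrocyte score had 4.8% up and 10.2% down, inhibitory neurons 0.444% and 0.138%, the olfactory bulb 0.0899% and 0.012%, endothelium and pericytes 1.56% and 0.426%, and microglia 1.11% and 0.671%.

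Leaving out the 2 libraries of most extreme score moved the 3 strongest relations little: r was 0.65 for Pcdhgc5 with the cortical score, 0.47 for Pcdhgc3 with the astrocyte score and -0.51 with the nuclear score. Within the 7 blocks these ran from 0.52 to 0.85, from 0.13 to 0.77 and from -0.72 to -0.28. For the other 9 relations, r without the 2 libraries was between 0.31 and 0.44 in size, except -0.29 for Pcdhgc3 with the striatum score. The sign differed between blocks for Pcdhgc5 with the hypothalamus score, from -0.55 to 0.40, and for Pcdhgc3 with the choroid plexus score, from -0.04 to 0.65. The other 7 kept 1 sign in every block: Pcdhgc3 ran from 0.30 to 0.66 with cerebellum, from 0.16 to 0.46 with meninges, from 0.09 to 0.51 with pan-neuronal genes and from -0.42 to -0.12 with striatum. Pcdhgc5 ran from 0.28 to 0.70 with striatum, from -0.59 to -0.24 with cerebellum and from -0.46 to -0.10 with choroid plexus. The adjusted permutation p of each of the 12 relations was 0.000308 over the 555, from the smallest p that 100000 permutations can give, 1e-05. With median ratio scaling, Pcdhgc3 with the striatum score (-0.176) and Pcdhgc5 with the choroid plexus score (-0.252) were no longer called. With the first 10 principal components of the other genes as covariates, 1 relation was called, Pcdhgc3 with the astrocyte score (partial r = 0.32). Pcdhgc5 with the cortical score then stood at 0.03 and Pcdhgc3 with the nuclear score at 0.04.

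**Figure D5:**
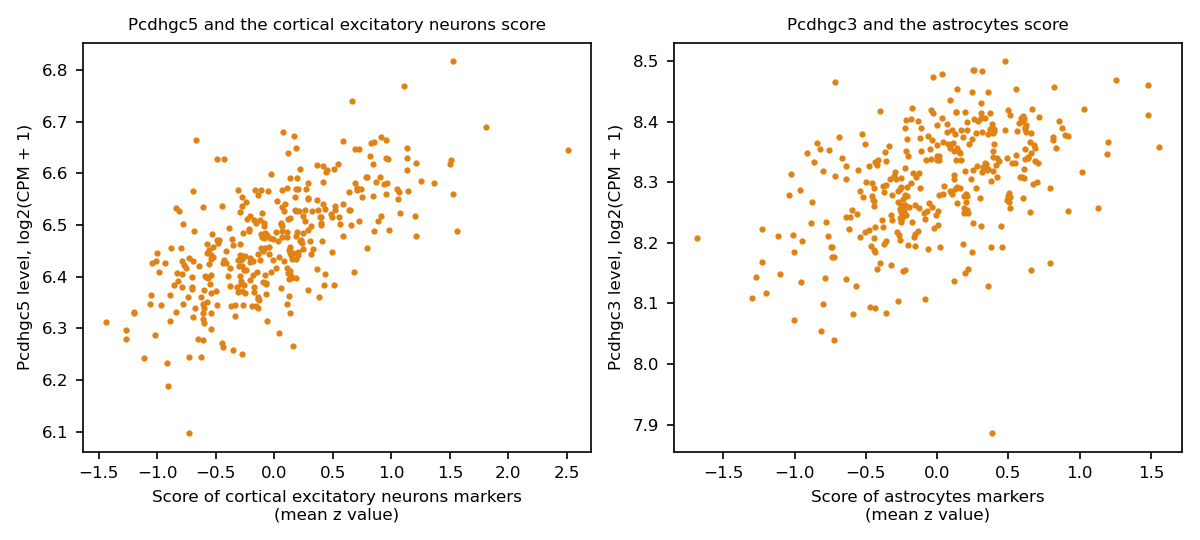
Level, log2(CPM + 1), of Pcdhgc5 against the score of cortical excitatory neuron markers (left) and of Pcdhgc3 against the score of astrocyte markers (right); each point is 1 library and a score is a mean z value. Both rise with the score, at r = 0.66 and r = 0.47.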

How the data were processed

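PolyA RNA was sequenced from whole brain hemispheres; 342 of 352 labelled samples were analysed, and 10 were not analysed here. The deposited table holds log2(estimated count + 1) per gene, made by the authors with kallisto, per the submitters' processing notes and the values; no source used here gives kallisto's version. Counts were recovered by reversing the log2, scaled to CPM and taken as log2(CPM + 1). Genes of mean level at least 1 were tested. Spread was set against a lowess trend. Relations were fitted with limma 3.58.1 in R 4.3.3 with Benjamini-Hochberg adjustment, and correlations were permuted 100000 times in Python 3.11.15. The limma fits, the mixtures of single genes and the joint mixture were tested on simulated data. The closest pair of libraries had r = 0.9951, and their counts differed by more than sampling noise (chi-square per degree of freedom 3.585). Named genes were the C-type genes, the highest and most variable of each cluster, those called, and the nearest genes. The members and lists were chosen with earlier results of these data known. The joint groups, the Pcdhb5 fit and the libraries left out were added after values were seen. Promoter sequences are RefSeq's, for GRCr8.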

Additional observations from a re-analysis of the deposited data

How the results depend on the processing

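Of the values under other settings, 89.1% kept their direction and side of the threshold (counts: within 1.5 times). A count of similar size need not hold the same genes. With no component as covariate, calls on the 4 planned genes numbered 20 against 21, and 10 of the 21 recurred with the same sign. The 2 genes of excess spread became 13 at 1.5 times the trend, 1 at a mean level of at least 3 and 1 without the 7 libraries. The 1 gene with separate levels became 4 at 3 SD and 0 at a mean level of at least 3, which removes Pcdhga1. The 1 gene differing between blocks became 3 with median ratio scaling, 2 at the higher minimum and 2 without the 7 libraries. The 12 score relations became 21 with median ratio scaling, which ended 2 of the 12 (Pcdhgc3 with striatum, -0.1758; Pcdhgc5 with choroid plexus, -0.2518), and 1 with 10 components as covariates. With those components r reversed for Pcdhgc3 with the nuclear (0.04136), cerebellum (-0.02045), choroid plexus (-0.007462), striatum (0.07971) and pan-neuronal (-0.08993) scores, and for Pcdhgc5 with the choroid plexus (0.04087), hypothalamus (0.0332) and striatum (-0.1239) scores; the cause was not tested. With the 3 groups as covariates, the calls on the 4 planned genes went from 21 to 2 and those on Pcdhb5 from 19 to 0, a fit whose groups were made from Pcdhb5 itself. Pairs past 0.3 numbered 6 with group means taken out and 62 at the higher minimum, which tests fewer genes, and within the 250 libraries 28 with no component taken out. No paired analysis was possible because the samples form 1 group. Low counts limit Pcdhga1 and the low beta genes, and shared reads limit the split of the gamma genes. How far shared reads limit the split of Pcdhb6 from Pcdhb8 was not tested.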
